A study of Mus musculus with 2 samples.

Results

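Natural killer (NK) cells were examined in single-cell RNA sequencing of J558 plasmacytoma allografts, a tumour of a mouse plasma cell line grown under the skin. They were selected on UMIs (unique molecular identifiers, which count captured transcripts) of a few genes, as the cell barcodes with over 500 detected genes and under 15% mitochondrial UMIs that also carried at least 2 UMIs of Ncr1, Klrb1c and Klre1 together. In addition, they carried at most 1 UMI of the CD3 genes Cd3d, Cd3e and Cd3g, at most 2 UMIs of the myeloid genes Csf1r, C1qa, C1qb and C1qc, and under 3 UMIs of the J558 gene Trap1a. The rule found 120 NK barcodes among 8798 filtered barcodes, of which 20 came from the vehicle and 100 from the TAK-931 library. With over 2000 genes, the limit used in the study, 5 vehicle and 43 TAK-931 NK barcodes remained.

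J558 cells were injected subcutaneously into the flank of female BALB/c mice. By mouth, once daily for 6 days, the mice then received either 0.5% methylcellulose (vehicle) or 60 mg/kg of TAK-931, and tumours were taken at day 6. TAK-931 inhibits CDC7, a kinase that starts DNA replication, and both groups carried the same tumour with no sort for immune cells before droplet capture. There was 1 library per group, made from an allograft of each arm, so no spread between animals could be measured. Every interval below is a 95% interval that covers counting error only, no p-value is given, and the treatment cannot be told apart from the animal or the library.

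NK cells are innate lymphocytes that kill target cells without a rearranged antigen receptor. They weigh signals from activating receptors, which act through the adaptors Tyrobp, Hcst and Fcer1g, against inhibitory receptors that bind MHC class I, and release perforin and granzymes from preformed granules. In tumours they are also known as a source of interferon gamma and of chemokines such as Ccl3, Ccl4, Ccl5 and Xcl1 that attract T cells and dendritic cells.

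In all, 144767193 UMIs over 4565 barcodes were deposited for vehicle and 77369283 UMIs over 6558 barcodes for TAK-931. Barcodes with at least 3 Trap1a UMIs, called tumour barcodes here, numbered 3230 in vehicle and 160 in TAK-931. The libraries shared 8 barcode sequences, none of them among NK barcodes. NK barcodes were shallower than tumour barcodes, with a median of 4472 UMIs (range 1365 to 18027) in vehicle and 5614 UMIs (range 915 to 49751) in TAK-931. Summed, they gave 115998 and 773113 UMIs.

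The label was checked against markers that the rule did not use. Among the NK markers, only Gzma, Prf1 and Xcl1 were outside the rule, and their summed level was 12724 UMIs per 1000000 UMIs (CPM) in vehicle and 14391 CPM in TAK-931 NK barcodes, against 20.9 and 418 CPM over the whole libraries. Trac, the T cell receptor alpha constant gene, had 2 UMIs in vehicle and 15 UMIs in TAK-931 NK barcodes, and Cd8a had 0 and 3. Of 9 T cell markers outside the rule, 5 were at 0 in vehicle and 1 in TAK-931, with summed levels of 672 and 609 CPM against 5734 CPM in CD8 T barcodes of the TAK-931 library. Most of these UMIs were Trbc1 and Trbc2, which encode the T cell receptor beta constant regions and can be transcribed without a rearranged chain. Trdc, the delta constant gene, had 7 UMIs in vehicle and 120 UMIs in TAK-931 NK barcodes, while Zbtb16, which marks NKT cells, had 2 and 12. Neutrophil, mast cell and mural lists had at most 2 UMIs in either library. The B cell list had 2 and 7, the dendritic cell list 1 and 28, and the fibroblast list 0 and 16 UMIs. The endothelial list had 17 and 91 UMIs, nearly all of Pecam1, an adhesion gene that leukocytes also express.

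RNA of other cells was also present. The J558 list outside the rule summed to 1466 CPM in vehicle and 450 CPM in TAK-931 NK barcodes, against 105211 and 14893 CPM in the whole libraries. The monocyte and macrophage list outside the rule had 4 UMIs in vehicle and 258 UMIs in TAK-931 NK barcodes, with the barcodes ranging from 0 to 272 CPM and from 0 to 4372 CPM. That list gave 334 CPM in TAK-931 NK barcodes and 247 CPM in TAK-931 CD8 T barcodes, against 11484 CPM in the library. Lyz2, a macrophage lysozyme, had 0 and 102 UMIs, and Apoe had 2 and 134, while Adgre1 had 0 and 1. J558 RNA was thus higher beside the vehicle NK barcodes and macrophage RNA beside the TAK-931 NK barcodes. Summed over markers of other lineages, such RNA was 1.57% of the library level in vehicle and 3.29% in TAK-931 NK barcodes. With the library profile subtracted at these shares, log2 ratios of TAK-931 to vehicle were 0.14 for granule, 1.31 for cytokine and chemokine, and 0.95 for interferon-stimulated genes, against 0.15, 1.31 and 1.18 without subtraction.

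The share of NK barcodes depended on what they were counted against. Of all filtered barcodes they made up 0.480% (20 of 4163, exact interval 0.294 to 0.741) in vehicle and 2.16% (100 of 4635, 1.76 to 2.62) in TAK-931, a difference of 1.68 percentage points (Newcombe interval 1.22 to 2.17). Among barcodes with under 3 Trap1a UMIs the shares were 2.14% (20 of 933) and 2.23% (100 of 4475), with a difference of 0.091 points (−1.12 to 0.981). Among NK and T barcodes together, where T barcodes carried at least 2 CD3 and under 2 NK marker UMIs, the share was 26.3% (20 of 76) in vehicle and 10.8% (100 of 930) in TAK-931, a difference of −15.6 points (−26.6 to −6.71). The first comparison moves with the number of tumour barcodes and the last with the number of T barcodes, which was 56 in vehicle and 830 in TAK-931. The middle one moves with the make-up of the barcodes under 3 Trap1a UMIs. Of these, 590 of 933 in vehicle and 852 of 4475 in TAK-931 met the CD3 and myeloid limits with no NK marker UMI. What those barcodes were was not tested. With over 2000 genes the same 3 differences were 1.09, 0.0849 and −13.8 points. The limit on CD3 UMIs also bears on the shares, since 6 vehicle and 117 TAK-931 barcodes met the rest of the rule and were counted neither as NK nor as T. With no CD3 limit the shares were 0.625% and 4.68% of filtered barcodes, 2.79% and 4.85% of those with under 3 Trap1a UMIs, and 31.7% and 20.7% of NK and T barcodes. With such barcodes added only where Cd8a, Cd8b1, Cd4 and Trac were at 0, which were 6 and 15, they were 0.625% and 2.48%, 2.79% and 2.57%, and 31.7% and 12.2%. How many of them are NK cells was not tested.

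**Figure D1:**
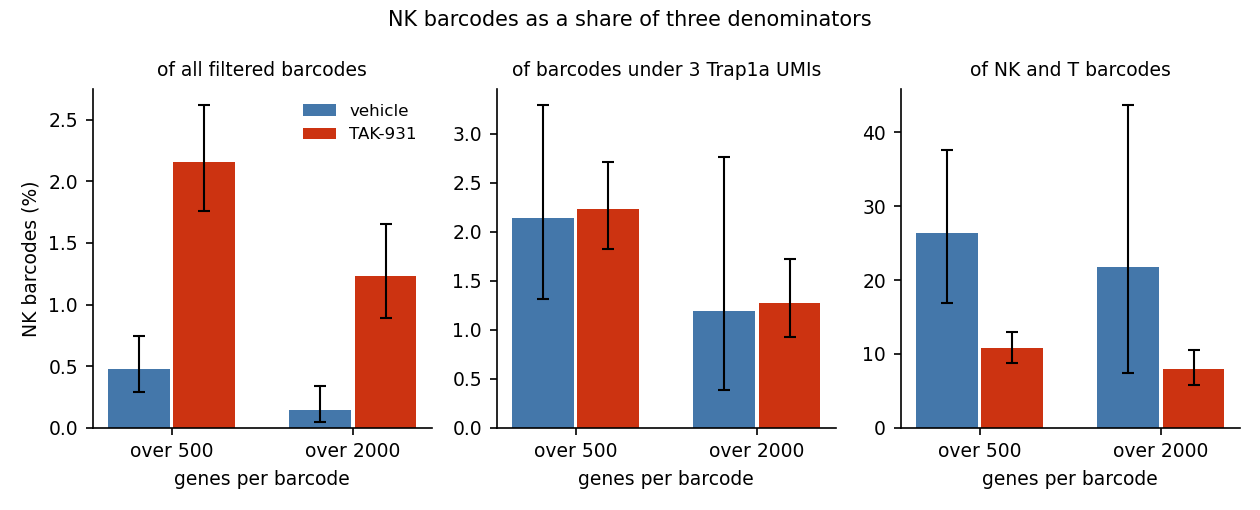
NK barcodes in percent (y axes) of all filtered barcodes, of barcodes with under 3 Trap1a UMIs, and of NK and T barcodes together, for over 500 and over 2000 genes per barcode, with exact 95% intervals and 1 library per group. TAK-931 is higher in the first panel (2.16% against 0.480%), close to vehicle in the second and lower in the last (10.8% against 26.3%).

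The selected barcodes held a large part of some transcripts. Of all filtered UMIs, NK barcodes held 0.0806% in vehicle and 1.05% in TAK-931. Nevertheless they held 49.6% of the Gzma UMIs in vehicle (1312 of 2644) and 40.3% in TAK-931 (10239 of 25416). For Prf1, the pore-forming perforin, the parts were 37.7% and 16.7%, and for Xcl1, the ligand of the dendritic cell receptor Xcr1, they were 53.4% and 11.5%. Klra7, which encodes an Ly49 receptor, had 56.5% (13 of 23 UMIs) and 40.6% (195 of 480 UMIs) of its UMIs there. For the interferon gamma gene, NK barcodes of TAK-931 had 51 of 1395 Ifng UMIs (3.66%, 2.73 to 4.78), and CD8 T barcodes, which held 8.63% of all filtered UMIs, had 559 (40.1%). Of the tumour necrosis factor gene Tnf, NK barcodes had 10 of 6482 UMIs (0.154%), below their part of all UMIs. In vehicle the Ifng count was 5 of 22.

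The values at the edge of the rule were as follows. Barcodes with 1 UMI of the 3 NK genes but otherwise alike numbered 8 in vehicle and 47 in TAK-931 and had 7478 and 6806 CPM of Gzma. Those with 2 UMIs, the lowest inside the rule, numbered 5 and 30 and had 11643 and 10455 CPM, and those with 0 UMIs had 30.1 and 178 CPM. Thus Gzma-rich barcodes lay on both sides of the limit. The 3 selecting genes themselves had 362 CPM (Ncr1), 121 CPM (Klrb1c) and 302 CPM (Klre1) in vehicle NK barcodes and 252, 68.6 and 316 CPM in TAK-931 NK barcodes. These values were fixed by the selection.

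Gzma and Ccl5 were among the most abundant transcripts of NK barcodes, where UMIs were counted at the 3′ end and levels were not divided by gene length. With mitochondrial, ribosomal and immunoglobulin genes left out, Gzma ranked 3rd in vehicle and 4th in TAK-931, and Ccl5 ranked 6th in vehicle and 1st in TAK-931. Most of the other leading genes, such as Tmsb4x (18311 and 18277 CPM), Malat1, Tpt1 and Actb, are expressed in nearly all cells. AW112010, known as an interferon-responsive transcript of lymphocytes, ranked 10th in TAK-931 with 4046 CPM, against 3440 CPM in vehicle.

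The granule genes differed little between the libraries, apart from Gzmb and Gzmc. Gzma, a serine protease of the granules, had 11311 CPM (10707 to 11940) in vehicle and 13244 CPM (12989 to 13503) in TAK-931 NK barcodes. It was detected in 18 of 20 and 94 of 100 barcodes, with medians of 11556 and 11790 CPM per barcode, and 51% of TAK-931 barcodes lay above the vehicle median. Prf1 had 741 and 927 CPM, a log2 ratio of TAK-931 to vehicle of 0.32 (−0.0013 to 0.66). Gzmb, which starts apoptosis in the target cell, was higher in TAK-931, with 2177 against 1362 CPM (log2 ratio 0.68, 0.44 to 0.92). Gzmc stood apart, with 422 CPM in vehicle and 53.03 CPM in TAK-931 (log2 ratio −2.99, −3.63 to −2.37). Only 5 vehicle barcodes held the 49 Gzmc UMIs, and 1 of them held 18. With the 6 vehicle and 15 TAK-931 barcodes that had CD3 but no Cd8a, Cd8b1, Cd4 or Trac UMIs added, the ratios were 0.27 for Gzmb and −2.01 for Gzmc. The granzyme genes Gzmc to Gzmg are near-identical copies, so reads can be split among them.

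As a group, 11 of 20 granule genes reached 50 UMIs over both sums, of which 6 were higher and 5 lower in TAK-931. At a 2-fold difference, 0 were higher and 1, Gzmc, was lower. Over all 2487 genes with that count, 57.2% were higher in TAK-931, 12.1% were at least 2-fold higher and 2.41% at least 2-fold lower in TAK-931, with a median log2 ratio of 0.12. The granule list had a median log2 ratio of 0.07 and a summed level of 20910 CPM in TAK-931 and 18828 CPM in vehicle (log2 ratio of the sums 0.15, 0.09 to 0.22). Without Gzma the log2 ratio of the sums was 0.03 (−0.07 to 0.13). Serpinb9, which protects the killer cell from its own granzyme B, had 671 and 672 CPM. Fasl, the ligand of the death receptor Fas, had 190 and 147 CPM in TAK-931 and vehicle, within counting error.

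The chemokines differed more. Ccl5, a chemokine that recruits T cells, had 7216 CPM (6735 to 7722) in vehicle and 19041 CPM (18735 to 19351) in TAK-931 NK barcodes, a log2 ratio of 1.40 (1.30 to 1.50). Its median per barcode was 7411 and 23625 CPM, and 82% of the TAK-931 barcodes lay above the vehicle median. The vehicle barcodes spread from 0 to 62867 CPM and overlapped with the TAK-931 barcodes (58.0 to 69558 CPM). The related Ccl4 had 405 and 1625 CPM (log2 ratio 2.00, 1.58 to 2.46), and Ccl3 had 51.7 and 537 CPM (3.38, 2.24 to 4.83). These 2 genes were detected in 8 and 4 of 20 vehicle barcodes and in 72 and 54 of 100 TAK-931 barcodes. A single vehicle barcode held 48.9% of the 47 vehicle Ccl4 UMIs, and Ccl3 had 6 vehicle UMIs in all.

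Xcl1 went the other way, with 672 CPM in vehicle and 220 CPM in TAK-931 (log2 ratio −1.61, −2.01 to −1.21). It rested on few vehicle cells, since 8 of 20 barcodes held its 78 UMIs and 1 barcode held 33.3% of them. In TAK-931, 27 of 100 barcodes held 170 UMIs. Ifng had 43.1 and 66.0 CPM in vehicle and TAK-931 (5 and 51 UMIs), and its log2 ratio of 0.61 had an interval from −0.70 to 2.30. Csf2 and Il10 had no UMI in NK barcodes of either library.

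Of 7 counted cytokine and chemokine genes, 6 were higher and 1 was lower in TAK-931, with 3 (Ccl3, Ccl4 and Ccl5) at least 2-fold higher and 1 (Xcl1) at least 2-fold lower, beside 57.2%, 12.1% and 2.41% of all genes higher, at least 2-fold higher and at least 2-fold lower. The median log2 ratio was 0.61 and the summed level was 21861 CPM in TAK-931 and 8793 CPM in vehicle (log2 ratio 1.31, 1.22 to 1.41). Ccl5 gave 87.1% of the TAK-931 sum and 82.1% of the vehicle sum. Without Ccl5 the ratio was 0.84 (0.62 to 1.06). Scaled by the median ratio of genes with 50 UMIs in each sum instead of by totals, ratios of TAK-931 to vehicle would all be 0.24 higher on the log2 scale. That shift depends on the gene set, since the 292 genes used had a median log2 ratio of −0.24. The 2487 genes with 50 UMIs in both sums together had a median of 0.12. All ratios here are relative to totals.

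**Figure D2:**
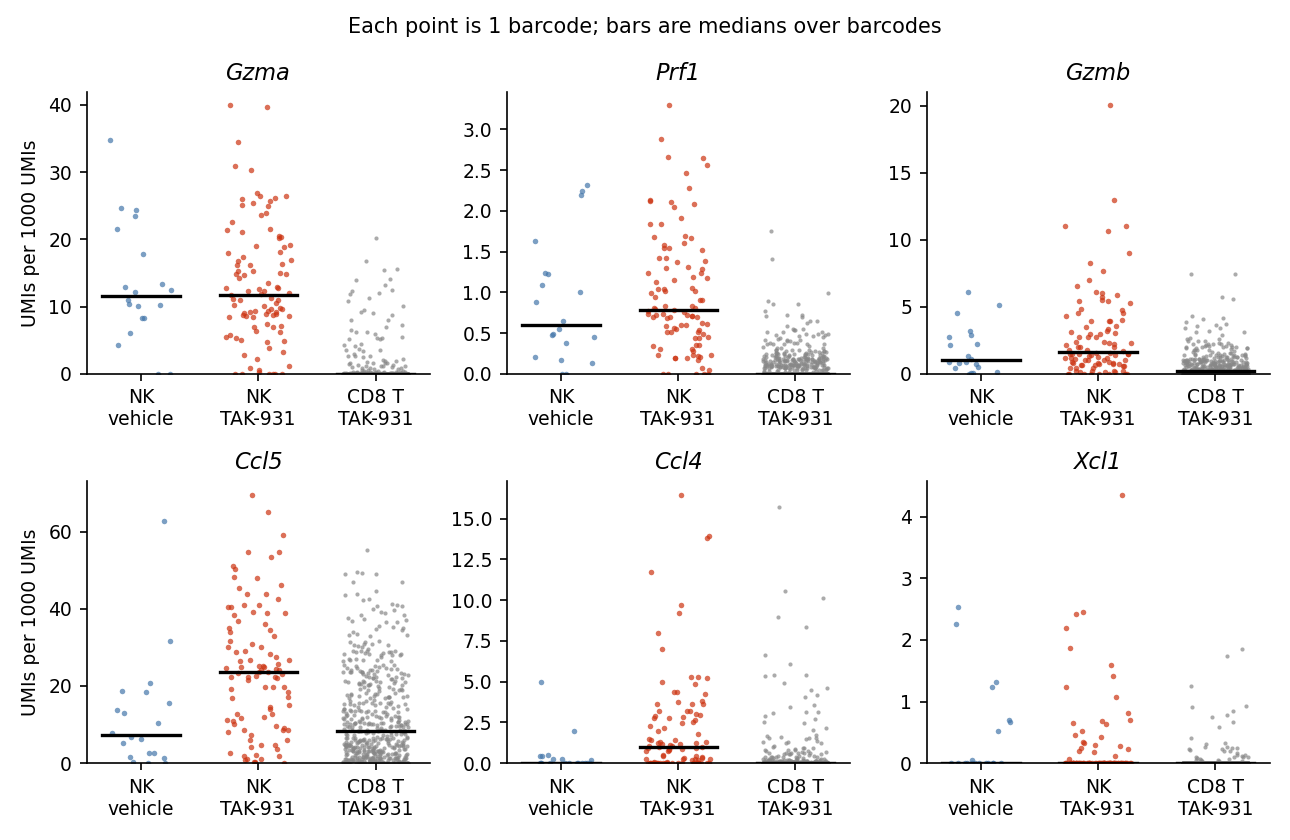
Gzma, Prf1, Gzmb, Ccl5, Ccl4 and Xcl1 in UMIs per 1000 UMIs (y axes) for each NK barcode of vehicle (20) and TAK-931 (100) and each CD8 T barcode of TAK-931 (514), with the median as a bar. Medians of Gzma were alike in the NK groups (11556 and 11790 CPM), while that of Ccl5 was 7411 CPM in vehicle and 23625 CPM in TAK-931, with overlapping barcodes.

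Detection at equal depth gave the same order. With each barcode thinned to 1000 UMIs, Gzma was found in 18 of 20 vehicle NK barcodes (90%) and 92 of 99 TAK-931 NK barcodes (92.9%), and in 4 of 3229 and 1 of 160 tumour barcodes, which should lack it. Ccl5 was found in 18 of 20 and 94 of 99 NK barcodes, against 5 of 3229 and 15 of 160 tumour barcodes. Ccl4 was found in 4 of 20 (20%, 5.73 to 43.7) and 55 of 99 (55.6%, 45.2 to 65.5) NK barcodes, and in 2 of 3229 and 8 of 160 tumour barcodes. For Ccl3 the counts were 1 of 20 and 26 of 99 NK barcodes. At 1000 UMIs the tumour shares were thus below the NK shares for Gzma, Ccl5 and Ccl4. Tumour barcodes were far deeper before thinning, so their shares may understate the background in NK barcodes. The median depth before thinning was 41545 UMIs in vehicle and 60508 UMIs in TAK-931 tumour barcodes, and 1 TAK-931 NK barcode was too shallow to be thinned. Ifng, at 1 of 20 and 3 of 99 NK barcodes, was too rare at this depth to compare.

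Signalling adaptors and activating receptors differed in both directions. Tyrobp (DAP12), the adaptor of activating Ly49 receptors, had 1810 CPM in vehicle and 1566 CPM in TAK-931, and Fcer1g, the Fc receptor gamma chain, had 1017 and 1045 CPM. Hcst (DAP10), the adaptor of the receptor NKG2D, had 672 CPM in vehicle and 283 CPM in TAK-931 (log2 ratio −1.25, −1.63 to −0.86). Klrk1, which encodes NKG2D itself, had 336 and 462 CPM (0.46, −0.02 to 0.97). Klrc2, a CD94-paired activating receptor gene, was higher in TAK-931 with 285 against 103 CPM (1.46, 0.63 to 2.43), and Cd247, the zeta signalling chain, had 98.3 against 25.9 CPM with only 3 UMIs in vehicle. Of 10 counted activating receptor and adaptor genes, 3 were at least 2-fold higher and 1 at least 2-fold lower in TAK-931, beside 12.1% and 2.41% of all genes. Their median was 0.32, while the sums were 4455 CPM in TAK-931 and 4664 CPM in vehicle, a log2 ratio of −0.07 (−0.20 to 0.07) that became 0.17 under median ratio scaling and 0.17 with the barcodes added that had CD3 but no Cd8a, Cd8b1, Cd4 or Trac UMIs.

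Inhibitory receptors were led by Klrg1, a receptor for cadherins found on mature NK cells. Klrg1 had 2 UMIs in vehicle (17.2 CPM) and 153 UMIs in TAK-931 (198 CPM), a log2 ratio of 3.52 (1.64 to 6.58). Both vehicle UMIs lay in 1 of 20 barcodes, whereas 43 of 100 TAK-931 barcodes had a UMI. With the CD3-bearing barcodes added in the same way the ratio was 2.16 (1.21 to 3.31). At 1000 UMIs per barcode the counts were 1 of 20 and 12 of 99, and 0 of 3229 and 0 of 160 in tumour barcodes. Klrd1 (CD94) had 560 and 609 CPM and Klrc1 (NKG2A), its inhibitory partner, had 103 and 129 CPM in vehicle and TAK-931, within counting error. All 5 counted inhibitory genes were higher in TAK-931, with 3 at least 2-fold higher, beside 57.2% and 12.1% of all genes. Over 2000 genes, 2 of 3 counted genes were higher and 1 lower, beside 56.6% of all genes higher. Over 500 genes the summed level was 1271 against 1060 CPM (log2 ratio 0.26, −0.01 to 0.54). The T cell checkpoint genes Pdcd1 and Havcr2 had 0 UMIs in vehicle NK barcodes and 1 and 11 UMIs in TAK-931 NK barcodes.

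The Ly49 receptors, encoded by the Klra genes, mostly bind MHC class I and are switched on in some NK cells and not in others. At least 1 Klra UMI was found in 11 of 20 vehicle NK barcodes (55%, 31.5 to 76.9) and 70 of 100 TAK-931 NK barcodes (70%, 60.0 to 78.8). With each barcode thinned to 1000 UMIs the order turned, with 10 of 20 (50%, 27.2 to 72.8) and 44 of 99 (44.4%, 34.5 to 54.8). The background at that depth was 104 of 3229 (3.22%) and 10 of 160 (6.25%) tumour barcodes, and 0 of 20 and 3 of 514 CD8 T barcodes. Of the 4144 and 351 Klra UMIs in tumour barcodes, 4115 and 321 were of Klra17, which had no UMI in NK barcodes. No difference in this share was thus detectable between the libraries. Klra3 had 250 CPM in vehicle and 354 CPM in TAK-931, and Klra7 had 112 and 252 CPM. In total the 11 Klra genes among the features had 534 and 726 CPM (log2 ratio 0.44, 0.06 to 0.84). The Klra genes are near-identical copies whose number differs between mouse strains, and the submitters' processing notes name a C57BL/6 reference (mm10) for BALB/c mice, so the assignment of reads among them is uncertain.

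Maturation and lineage genes followed. Eomes, a transcription factor that sets conventional NK cells apart from tissue-resident innate lymphoid cells, had 216 CPM in vehicle and 386 CPM in TAK-931 (log2 ratio 0.84, 0.25 to 1.49). Irf8, a transcription factor used in NK cell responses, had 1276 and 1776 CPM (0.48, 0.23 to 0.73). Itgam (CD11b), which is gained as NK cells mature, had 17.2 CPM (2 UMIs) and 77.6 CPM (60 UMIs). All 6 counted conventional NK genes were higher in TAK-931, 1 of them at least 2-fold, beside 57.2% and 12.1% of all genes, with sums of 2600 against 1750 CPM (0.57, 0.36 to 0.79). The immature NK list, which holds Cd27, Kit and Il7r, had 947 and 914 CPM in TAK-931 and vehicle. The mature NK list had 634 and 345 CPM (0.88, 0.41 to 1.38), with 3 of 5 counted genes at least 2-fold higher, beside the same 12.1%. Over 2000 genes it had 585 and 184 CPM (1.67, 0.81 to 2.69), with 11 UMIs in vehicle. The innate lymphoid type 1 list had 533 and 672 CPM (−0.34, −0.69 to 0.03), although the median of its 2 counted genes was 0.01, and the type 2 and 3 list had 5 UMIs in TAK-931 and 0 in vehicle. Of 14 counted transcription factor genes, 12 were higher and 2 lower in TAK-931, beside 57.2% of all genes higher, with 0 past 2-fold in either direction and a median of 0.33. The 2 lower genes were Runx3, with 724 CPM in vehicle and 426 CPM in TAK-931 (−0.77), and Id2, with 1569 and 1414 CPM (−0.15). Over 2000 genes, 4 of 11 counted transcription factor genes were at least 2-fold higher and 0 at least 2-fold lower, with a median of 0.76. Of all 1671 genes counted at that limit, 295 were at least 2-fold higher and 65 at least 2-fold lower.

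Cytokine receptor and signalling genes came next. Il2rb, the chain shared by the receptors of interleukin 2 and interleukin 15, had 940 CPM in vehicle and 1411 CPM in TAK-931 (log2 ratio 0.59, 0.30 to 0.88), and 80% of TAK-931 barcodes lay above the vehicle median. Of 10 counted genes 8 were higher and 2 lower, with 1 at least 2-fold higher, near the 12.1% of all genes, while 57.2% of all genes were higher. The summed ratio was 0.43 (0.27 to 0.58). Cish, a feedback inhibitor of interleukin 15 signalling that was summed with the inhibitory list, had 129 CPM (15 UMIs) in vehicle and 18.1 CPM (14 UMIs) in TAK-931 (−2.84, −4.00 to −1.68).

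Homing and adhesion genes were next. Ccr2, the receptor for the monocyte chemokine Ccl2, had 51.7 CPM (6 UMIs) in vehicle and 243 CPM (188 UMIs) in TAK-931 (log2 ratio 2.23, 1.08 to 3.70, and 1.58 with the CD3-bearing barcodes added). The integrin genes Itga4, Itgal and Itgb2 were also higher, with log2 ratios of 1.20, 0.79 and 0.88. Among 12 counted genes 11 were higher in TAK-931 and 4 at least 2-fold higher, beside 57.2% and 12.1% of all genes, with a median of 0.79 against 0.12 over all genes, and the sums were 2765 against 1612 CPM. Cxcr6, a receptor of tissue-resident lymphocytes, had 43.1 CPM (5 UMIs) in vehicle and 12.9 CPM (10 UMIs) in TAK-931.

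Interferon-stimulated genes had low counts in vehicle, 45 UMIs over the 22 genes found among the features, against 680 UMIs in TAK-931. The summed level was 388 and 880 CPM (log2 ratio 1.18, 0.74 to 1.65). All 7 counted genes were higher in TAK-931 and 5 at least 2-fold, beside 57.2% and 12.1% of all genes. Ifi27l2a had 17.2 and 142 CPM (2 and 110 UMIs), and Bst2, which tethers viral particles, had 25.9 and 94.4 CPM (3 and 73 UMIs). MHC class I genes differed little, with a summed ratio of 0.12 (0.03 to 0.21) and 1 of 11 counted genes at least 2-fold higher, near the 12.1% of all genes. The p53 target list had 568 CPM in TAK-931 and 405 CPM in vehicle (0.49, 0.05 to 0.95), with 0 of its 3 counted genes past 2-fold.

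Early response genes, which dissociation of tissue can raise, had a lower sum in TAK-931. Junb, a subunit of the transcription factor AP-1, had 1750 CPM in vehicle and 900 CPM in TAK-931, and 35 of 100 TAK-931 barcodes lay below the lowest vehicle barcode (555 CPM). Jun was the opposite, with 34.5 CPM (4 UMIs) and 166 CPM (128 UMIs). Of 9 counted genes 3 were higher and 6 lower, with 2 at least 2-fold higher and 0 at least 2-fold lower, beside 57.2% of all genes higher and 12.1% and 2.41% past 2-fold, and the summed level was 5015 CPM in TAK-931 and 6397 CPM in vehicle (log2 ratio −0.35, −0.46 to −0.24).

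**Figure D3:**
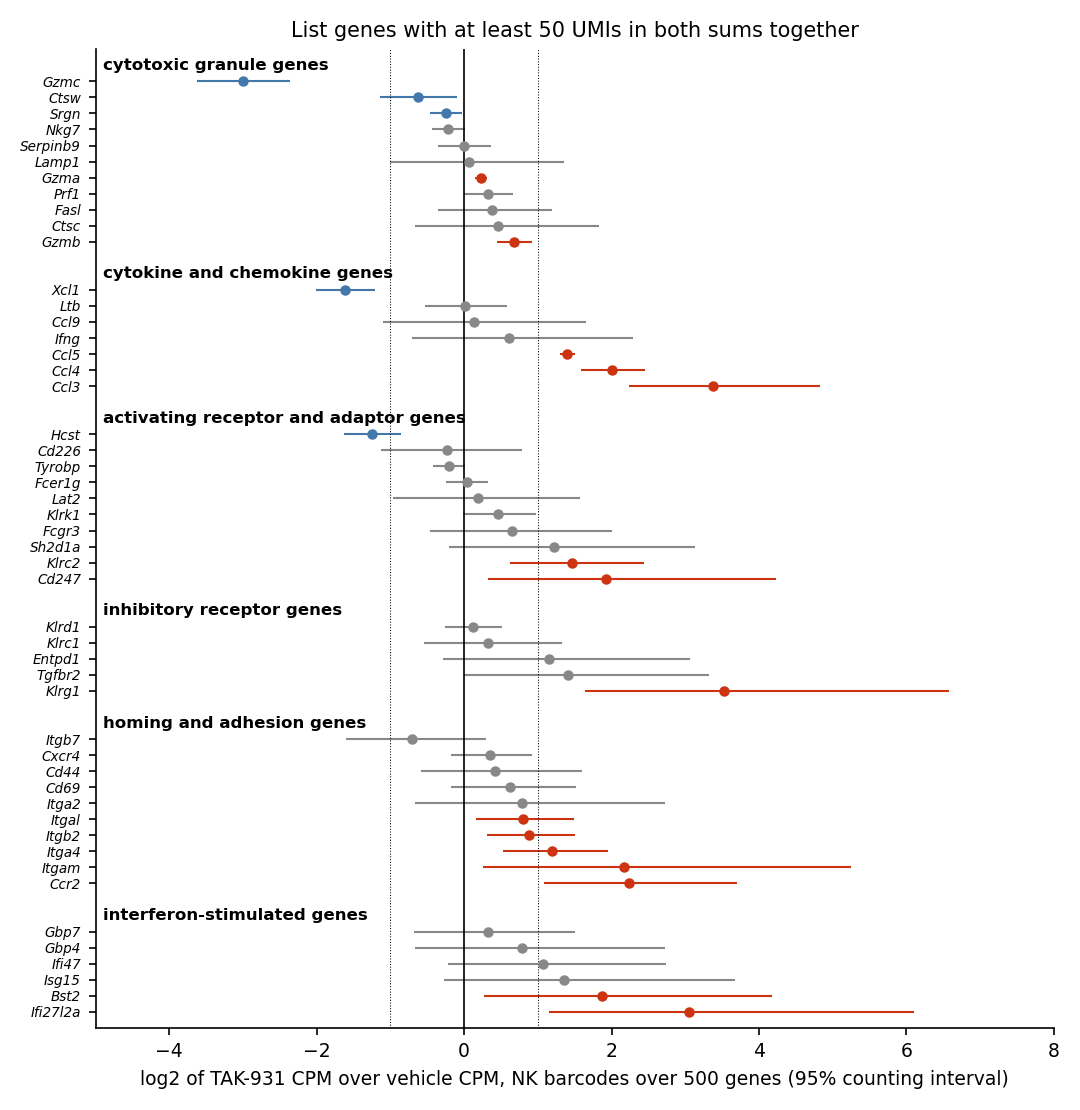
Log2 ratio of CPM in TAK-931 to vehicle NK barcodes (x axis, with 95% counting intervals) for counted genes of 6 lists, a few of them left out; red intervals lie above 0, blue below 0 and grey span 0, and dotted lines mark 2-fold. The whole interval lies above 2-fold for Ccl3, Ccl4, Ccl5, Klrg1, Ccr2 and Ifi27l2a, and below it on the left for Gzmc and Xcl1.

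Ratios were also ranked over 1706 genes that had at least 30 UMIs in the higher library, spread over barcodes and not below the level of the other filtered barcodes there. The highest were of low counts. Of the 10 highest ratios in TAK-931, 9 belonged to genes with no UMI in vehicle, among them Prc1, a cytokinesis gene, and Rasgrp2, an activator of Rap1. At the limit set by 3 UMIs in vehicle they were at least 1.90-fold to 2.35-fold higher, and Klrg1 was the tenth. The lowest ratios in this ranking, which Gzmc, Cish and Xcl1 did not enter, were those of S100a4 and Hilpda. S100a4, a calcium-binding protein of motile lymphocytes, had 1405 CPM (163 UMIs) in vehicle and 171 CPM (132 UMIs) in TAK-931, 8.23-fold lower. Hilpda, a lipid droplet gene induced by low oxygen, had 362 and 60.8 CPM (42 and 47 UMIs). The vehicle UMIs lay in 10 barcodes for S100a4 and 9 for Hilpda, and 1 barcode held 23.9% and 23.8% of them. Others on the low side were Bcl2a1b, Eif3j1, Eny2, Selenow, Hcst, Uqcr10, Junb and Ier2, whose folds ranged from 1.90 to 2.79.

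Barcodes of low and high gene number differed within the vehicle library. Its 5 NK barcodes over 2000 genes had 1369 CPM of Ccl5 and 7662 CPM of Gzma, while the other 15 had 13459 and 15206 CPM. Eomes had 2 UMIs (33.4 CPM) in the deep and 23 UMIs (410 CPM) in the shallow barcodes, and Klra3 had 0 and 29 UMIs. Xcl1 went the other way, with 918 and 410 CPM. In TAK-931 the deep and shallow barcodes were closer, with 15076 and 27440 CPM of Ccl5, 13347 and 13026 CPM of Gzma, 335 and 492 CPM of Eomes, and 312 and 444 CPM of Klra3. The 5 deep vehicle barcodes thus had lower levels of Ccl5, Gzma, Eomes and Klra3 than the shallower vehicle barcodes and the TAK-931 barcodes of either depth. Of these 5, only 1 had an Eomes UMI, while all 5 had Irf8 and Xcl1 UMIs. Whether they are conventional NK cells was not tested.

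Ratios between the libraries moved accordingly. Over 2000 genes, the summed granule list had a log2 ratio of TAK-931 to vehicle of 0.57 (0.46 to 0.67) in place of 0.15, and the cytokine and chemokine list had 2.46 (2.25 to 2.67) in place of 1.31. Ccl5 alone had 3.46 (3.15 to 3.79), Ccl4 had 1.28 (0.76 to 1.87), and Xcl1 had −2.17 (−2.65 to −1.68). The Ly49 genes had 346 UMIs in TAK-931 and 4 UMIs in vehicle, a ratio of 3.30 (1.93 to 5.19). The directions for Gzma, Gzmb, Ccl5, Ccl4 and Xcl1 were those found over 500 genes.

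Cell cycle genes were carried by few NK barcodes. At least 3 UMIs of the proliferation genes Mki67 and Top2a were found in 1 of 20 vehicle barcodes (5%, 0.127 to 24.9) and 11 of 100 TAK-931 barcodes (11%, 5.62 to 18.8). In TAK-931 the 11 barcodes had a median of 25431 UMIs against 5256 UMIs in the rest, and 5 barcodes held 70.0% of the 307 Mki67 and Top2a UMIs. The list of 32 cell cycle genes had 2672 CPM in vehicle and 3271 CPM in TAK-931 (log2 ratio 0.29, 0.12 to 0.47), and without the 1 and the 11 barcodes it had 1565 CPM in vehicle and 1066 CPM in TAK-931, the opposite order. A single vehicle barcode held 144 of the 310 vehicle UMIs. Of 11 counted genes, 7 were higher and 4 lower in TAK-931, with 5 at least 2-fold higher and 0 at least 2-fold lower, beside 57.2%, 12.1% and 2.41% of all genes, and the higher ones include Top2a (77.6 and 228 CPM) and Mki67 (60.3 and 169 CPM). Without the 5% of barcodes with the most UMIs, the list was lower in TAK-931 (−0.19, −0.39 to 0.01). The CDC7 list, which holds the kinase gene Cdc7, its activator Dbf4 and the substrate genes Mcm2, Mcm4 and Mcm6, had 302 and 334 CPM.

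**Figure D4:**
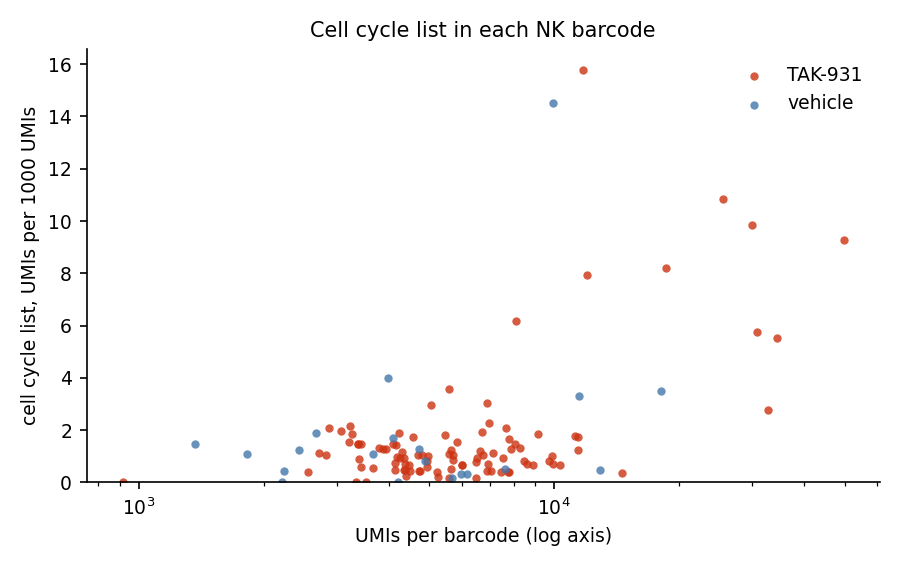
Summed cell cycle genes in UMIs per 1000 UMIs (y axis) against UMIs per barcode (x axis, log) for each NK barcode of both libraries. Most barcodes lie near the bottom, and the high values in TAK-931 come mainly from barcodes with many UMIs (median 25431 for the 11 with Mki67 and Top2a).

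NK barcodes were set beside other cytotoxic lymphocytes, the 514 CD8 T barcodes of the TAK-931 library, which carried at least 2 CD3 UMIs, under 2 NK marker UMIs, at least 1 UMI of Cd8a and Cd8b1 and no Cd4. Both sets came from 1 library, so the ratios describe these barcodes and cells are not replicates. The limits left 169 barcodes with at least 2 NK marker UMIs and over 1 CD3 UMI out of both sets, 130 of them with a Cd8a UMI. They had 1596 CPM of Gzma, 382 CPM of Prf1, 1050 CPM of Gzmb and 48.8 CPM of Klra3, each above the CD8 T set used. Their Ccl5, at 3867 CPM, was below it. How far leaving them out changed the ratios was not tested. CD8 T barcodes were deeper, with a median of 9282 UMIs. Of 7887 genes with 50 UMIs over both sums, 5.79% were at least 2-fold higher and 9.51% at least 2-fold lower in NK barcodes, with a median of 0.00. Under median ratio scaling, log2 ratios of NK to CD8 T barcodes would all be 0.12 lower.

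Granule genes divided between the cell types. Gzma had 13244 CPM in NK and 282 CPM in CD8 T barcodes (log2 ratio 5.55, 5.48 to 5.63), Prf1 had 927 and 137 CPM (2.75, 2.61 to 2.90), and Gzmb had 2177 and 527 CPM (2.04, 1.96 to 2.13). By contrast, Gzmd (24.6 and 198 CPM), Gzme (29.7 and 216 CPM), Gzmf (1.29 and 139 CPM) and Gzmk (41.4 and 153 CPM) were lower in NK barcodes. Of 19 counted granule genes, 4 were at least 2-fold higher and 6 at least 2-fold lower, beside 5.79% and 9.51% of all genes. The sum was 20910 CPM in NK and 4926 CPM in CD8 T barcodes (2.09, 2.06 to 2.11), and 0.72 (0.68 to 0.76) without Gzma. Nkg7, a granule membrane protein of both cell types, had 1507 and 1257 CPM.

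Among the chemokines, Ccl3 (537 and 43.0 CPM), Ccl4 (1625 and 187 CPM) and Xcl1 (220 and 33.2 CPM) were higher in NK barcodes, with log2 ratios of 3.64, 3.12 and 2.73. Ccl5 had 19041 CPM in NK and 7432 CPM in CD8 T barcodes (1.36, 1.33 to 1.38). In the vehicle library the order for Ccl5 was the opposite, with 7216 CPM in the 20 NK and 11628 CPM in the 20 CD8 T barcodes, a difference that was not tested. Ifng (66.0 and 88.0 CPM), Ltb (286 and 514 CPM), Csf1 (3.88 and 41.4 CPM) and Tnfsf10 (3.88 and 19.7 CPM) were lower in NK barcodes, where the last 2 had 3 UMIs each. Hence 5 of 11 counted cytokine and chemokine genes were at least 2-fold higher and 3 at least 2-fold lower, beside 5.79% and 9.51% of all genes. Over 2000 genes, 5 of 11 were at least 2-fold higher and 5 at least 2-fold lower, beside 5.71% and 9.62% of all genes. The median was 0.06 over 500 and −0.69 over 2000 genes, while the ratio of the sums was 1.38 and 1.35.

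NK signalling genes were far higher than in CD8 T barcodes: Tyrobp had 1566 against 55.4 CPM (log2 ratio 4.82), Fcer1g had 1045 against 61.4 CPM (4.09) and Klra7 had 252 against 0.315 CPM. The T cell signalling genes Lat, with 19.4 against 237 CPM, and Zap70, with 27.2 against 78.4 CPM, were lower. Of 20 counted activating receptor and adaptor genes, 9 were at least 2-fold higher and 6 at least 2-fold lower, beside 5.79% and 9.51% of all genes, with a median of 0.52. Over 2000 genes, 18 were counted, of which 5 were at least 2-fold higher and 7 at least 2-fold lower, beside 5.71% and 9.62% of all genes at that limit, with a median of −0.27. The summed level stayed higher in NK barcodes, with log2 ratios of 1.09 over 500 and 0.95 over 2000 genes. Receptors for interleukins 12 and 18, Il12rb2 (209 and 41.7 CPM) and Il18rap (224 and 41.6 CPM), were also higher in NK barcodes.

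Checkpoint genes of chronically stimulated T cells were nearly absent from NK barcodes. Pdcd1 had 1 UMI (1.29 CPM) in NK barcodes and 1708 UMIs (269 CPM) in CD8 T barcodes, a log2 ratio of −7.70 (−13.0 to −5.22). Havcr2 had 14.2 and 115 CPM, Lag3 had 10.4 and 83.4 CPM, Ctla4 had 18.1 and 114 CPM, and Tox, a transcription factor of T cell exhaustion, had 21.99 and 195 CPM. Of the inhibitory list, which also holds the signalling inhibitor Cish, 4 genes were higher in NK barcodes (Klrg1, Tgfbr1, Cish and Klrd1). Klrg1 had the largest ratio of them, with 198 CPM in NK and 21.2 CPM in CD8 T barcodes (3.22, 2.88 to 3.56). Of 15 counted genes of the list, 3 were at least 2-fold higher and 6 at least 2-fold lower in NK barcodes, beside 5.79% and 9.51% of all genes, with sums of 1271 and 1512 CPM (−0.25, −0.35 to −0.16).

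Among homing genes, Itgam (77.6 and 3.62 CPM) and Ccr2 (243 and 66.3 CPM) were higher in NK barcodes. Cxcr6 (12.9 and 293 CPM), Cxcr3 (3.88 and 32.9 CPM) and S1pr1 (2.59 and 44.4 CPM) were higher in CD8 T barcodes. Cell cycle genes were lower in NK barcodes for 29 of 31 counted genes, beside 49.7% of all genes, 9 of them at least 2-fold, beside 9.51%, with sums of 3271 and 5203 CPM (log2 ratio −0.67, −0.73 to −0.61). The share with at least 3 Mki67 and Top2a UMIs was 11% in NK and 27.2% (140 of 514) in CD8 T barcodes, which were deeper. Over 2000 genes the shares were 23.3% (10 of 43) and 39.5% (137 of 347), the list was lower for 23 of 31 genes, beside 48.4% of all genes, 4 of them at least 2-fold, beside 9.62%, and the ratio of the sums was −0.38 (−0.45 to −0.32). At that limit CD8 T barcodes were still deeper, with a median of 12648 against 8289 UMIs. The summed levels of Mki67 and Top2a themselves changed order with the limit, with log2 ratios of −0.18 and −0.29 over 500 genes and 0.17 and 0.086 over 2000 genes, and with the CD3-bearing barcodes added Mki67 had 0.27. Interferon-stimulated genes summed to 880 and 1634 CPM, of which Ifi27l2a gave 142 and 782 CPM.

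**Figure D5:**
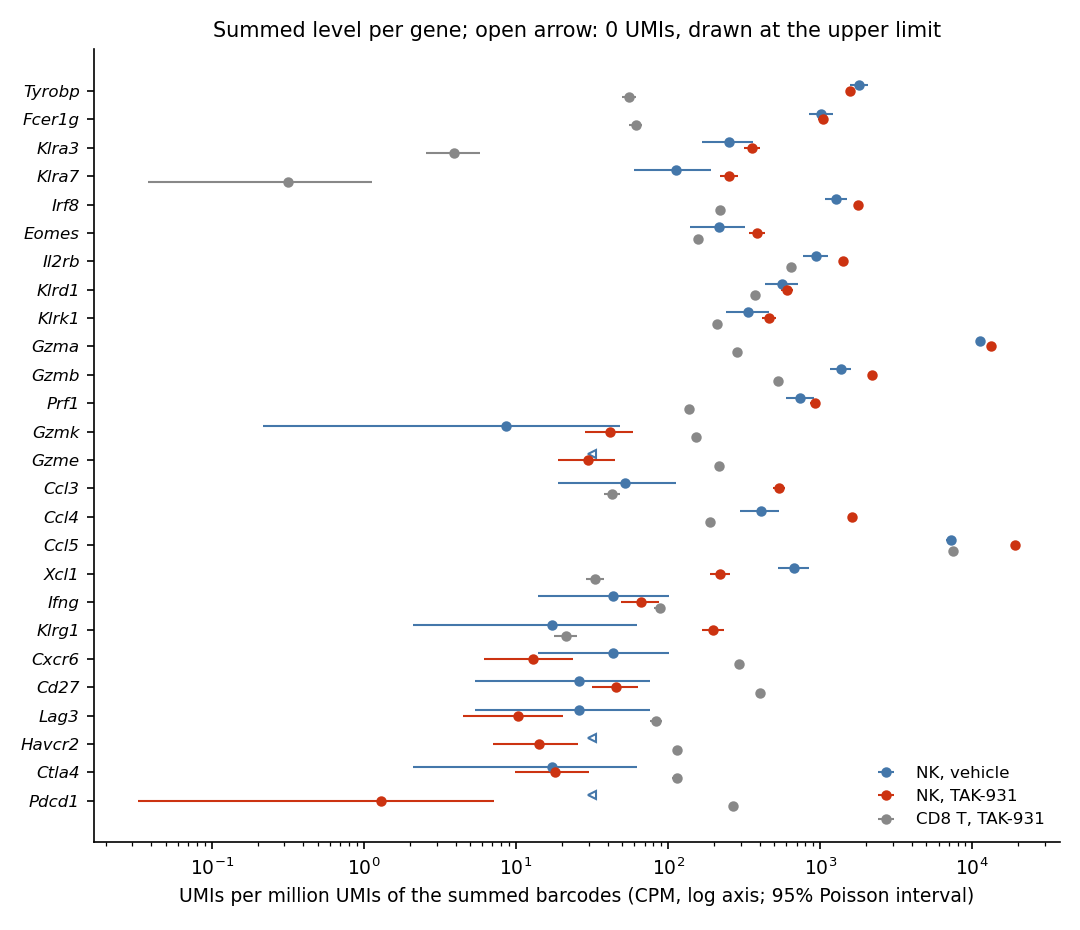
Summed level in CPM (x axis, log) with exact Poisson intervals for 26 genes in vehicle NK, TAK-931 NK and TAK-931 CD8 T barcodes; an open arrow marks the upper limit of a count of 0. Gzma, Tyrobp, Fcer1g and Klra7 lie far to the right in both NK groups, and Pdcd1, Cxcr6 and Cd27 lie to the right in CD8 T barcodes.

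By the ranking of all genes against CD8 T barcodes, the highest in NK barcodes included Trdc, Klra7, Klra3, Car2 (carbonic anhydrase 2), Atp1b1, Gzma, Tyrobp, Fcer1g, Ccl3, Nrarp and Cd9. Car2 had 292 and 3.94 CPM, and Atp1b1, a sodium pump subunit, had 153 and 2.20 CPM. Among the lowest were genes that had no UMI in 773113 NK UMIs. Themis, needed for T cell selection, was at least 45.4-fold lower, Bcl11b, which commits cells to the T lineage, at least 43.3-fold, and Nrn1, known for its role in neurite growth, at least 46.7-fold.

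NK barcodes of the TAK-931 library also varied among themselves. With 43 barcodes over 2000 genes thinned to 2000 UMIs, the variance of UMIs over their mean was 27.8 for Ccl5 (0 to 121 UMIs) and 15.9 for Gzma (0 to 86 UMIs), against a median of 1.15 over 613 genes. The next were H2-Aa and Cd74, MHC class II genes of antigen-presenting cells, with a UMI in only 4 and 9 of the 43 barcodes. The part of RNA from other cells in their spread was not tested. Hmgb2 (5.52), a cell cycle gene, and Ccl4 (5.28) were also among the 10 most variable.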

How the data were processed

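Droplet 3′ libraries of 1 vehicle and 1 TAK-931 allograft were used. The deposited matrices hold raw UMI counts per gene and barcode that the authors made with Cell Ranger 6.0.0; the submitters' processing notes name mm10, whereas the methods name a human build, although the 32285 features are mouse genes. No count was normalized by the authors in these files.

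The filters and the marker rule are given with the results; no doublet caller was run, and the limits on CD3, myeloid and Trap1a UMIs left out barcodes with such RNA, some of which may be NK cells. UMIs were summed per group and divided by the summed total (CPM). Ratios carry exact conditional binomial intervals, levels exact Poisson and shares exact Clopper-Pearson intervals, with 0.5 UMI added where a count was 0 and bounds set at 3 UMIs of the sum. Genes were counted at 50 UMIs in both sums together. With 1 library per group no test was made. Named genes were those of the lists and the extreme ratios, with 30 (library) or 100 (cell type) UMIs in the higher sum, no barcode over 25% of them and, between libraries, a level no lower than in the other filtered barcodes, the 10 most abundant and the 10 most variable genes. Some genes are in more than 1 list, and a few are not reported here. Members and lists were chosen with earlier results of these data known. Alternatives were other limits on genes, mitochondrial UMIs, markers and gene minimum, no CD3 UMI, thinning, mean barcode CPM, median ratio scaling, removal of the deepest 5% and free RNA subtraction. A pooled estimate of free RNA and 2 looser CD3 limits were added after seeing the data. Steps were tested on simulated data. Python 3.11.15, numpy 2.4.6, scipy 1.17.1, pandas 2.3.3 and matplotlib 3.10.9 were used.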

Additional observations from a re-analysis of the deposited data

Results flagged for a closer look

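Barcodes outside the rule also carried NK transcripts. In TAK-931, 169 barcodes had at least 2 UMIs of the NK genes but over 1 CD3 UMI and were left out, with a median of 22945 UMIs, and 117 of them met the other limits of the rule. They had 1596 CPM of Gzma and 382 CPM of Prf1 together with 321 CPM of Cd8a and 447 CPM of Trac, and 164 of them had a Klre1 UMI against 35 with an Ncr1 UMI. In vehicle, 6 barcodes were left out for the same reason. They had 6706 CPM of Gzma, 2060 CPM of Gzmb and 640 CPM of Xcl1 but no UMI of Cd8a or Trac. A further 7 TAK-931 barcodes met the marker rule with 15% or more mitochondrial UMIs, and had 10067 CPM of Gzma and 24015 CPM of Ccl5, against 0 such barcodes in vehicle. These sets were noted because their signal lay outside the data used for the comparisons.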

How the results depend on the processing

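Depth limited most values: the vehicle NK sum held 115998 UMIs of 20 barcodes, and alternatives were compared by whether a value left its counting interval. Of 122 values of shares and list sums under the alternatives, 80 stayed within it and 6 changed sign. Of 445 for single genes and medians, 336 stayed within it and 6 changed sign. The NK share of filtered barcodes differed by 1.09 points over 2000 genes, 1.15 with 3 and 2.50 with 1 NK marker UMI, 0.440 with the rule on counts thinned to 1000, and 4.06 with no CD3 limit, an alternative chosen after seeing the data. TAK-931 to vehicle log2 ratios were as follows. Over 2000 genes: granule 0.57, cytokine and chemokine 2.46, activating receptor 0.15, cell cycle 0.018. With 1 NK marker UMI: cytokine 1.21, activating 0.086, interferon-stimulated 1.86. Without the deepest 5%: cytokine 1.43, cell cycle −0.19. By the mean of barcode CPM: granule 0.027, cytokine 1.05, cell cycle −0.10. By median ratio scaling: granule 0.39, cytokine 1.55, activating 0.17, cell cycle 0.53. For NK against CD8 T barcodes, cytokine and chemokine ratios were 1.35 (over 2000 genes), 1.35 (10% mitochondrial limit), 1.35 (3 marker UMIs), 1.35 (1 marker UMI), 1.45 (no CD3 UMI), 1.47 (without the deepest 5%), 1.08 (mean of barcode CPM) and 1.26 (median ratio scaling). Granule ratios were 2.13, 1.94, 2.12, 2.12, 1.96 and 1.97 for the last 6 of these settings, and inhibitory receptor ratios were −0.41 (over 2000 genes), −0.35 (1 marker UMI) and −0.37 (median ratio scaling). For NK against CD8 T barcodes, Top2a went from −0.29 to 0.086 and Mki67 from −0.18 to 0.17 over 2000 genes. Also chosen after seeing the data, CD3 UMIs were allowed where Cd8a, Cd8b1, Cd4 and Trac were at 0, which gave an activating receptor ratio of 0.17 between the libraries and, against CD8 T barcodes, 1.10 for cytokine and chemokine, 1.96 for granule and 0.27 for Mki67. Free RNA estimated as the median over markers was 0% in vehicle NK barcodes, where 11 of 21 markers had no UMI, so that setting gave no value between the libraries. A pooled estimate was added, under which the granule ratio against CD8 T barcodes was 2.12. The cause of these shifts was not tested. The direction of the granule, cytokine and interferon-stimulated sums between the libraries held under these alternatives, while the activating receptor and cell cycle sums took either sign. No paired analysis was possible because each group had 1 library.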

Other observations

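Genes for ligands of NK receptors were read in the tumour barcodes, 3230 in vehicle and 160 in TAK-931. The MHC class I genes H2-K1 and H2-D1, whose products bind inhibitory Ly49 receptors, had 457 and 1261 CPM in vehicle and 588 and 1491 CPM in TAK-931 tumour barcodes. H2-T23, which encodes the Qa-1 ligand of NKG2A, had 79.3 and 136 CPM. The NKG2D ligand gene Ulbp1 had 9.88 and 9.45 CPM, and Pvr, a ligand of CD226, had 7.75 and 8.91 CPM. Cd48, a ligand of CD244, had 21.1 and 44.0 CPM, and Clec2d, a ligand of an inhibitory Klrb1 receptor, had 7.404 and 24.0 CPM. The T cell marker list, which plasmacytoma cells should lack for the most part, had 45.6 and 309 CPM in the same barcodes, and the part of RNA from other cells in these values was not tested.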
